A study of Mus musculus with 16 samples.

Results

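The effect of losing FGF21 in hearts that already lack the mitochondrial protease CLPP was examined by RNA sequencing of mouse cardiac tissue. Libraries of mice lacking both Clpp and Fgf21 (double KO, n = 4) were compared with libraries of mice lacking Clpp alone (Clpp KO, n = 4), which are 8 of the 16 libraries of the series. The other libraries are wild type (n = 4) and Fgf21 KO (n = 4). Every gene that passed a filter on low counts was a member of the comparison, 15255 of the 36499 gene entries in the deposited table. Per the labels, Clpp KO animals go back to Clpp fl/fl mice crossed to a line in which the β-actin promoter drives Cre recombinase throughout the body, and heterozygous offspring were intercrossed. Double KO animals were made with the same Cre line from mice carrying both Clpp fl/fl and Fgf21 fl/fl. The crosses thus differ, so loss of Fgf21 and any other difference between the lines cannot be told apart. All mice ate normal chow. Both groups compared here therefore lack CLPP in every tissue, and FGF21 in the double KO is missing from all organs, not from the heart alone. The labels give neither strain, age nor sex. Nor do they tie each library to its own mouse, and the p-values therefore reflect only how far these libraries scatter, some of which may be technical.

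CLPP is the proteolytic core of ClpXP, which degrades damaged and unneeded proteins in the mitochondrial matrix. Its loss disturbs mitochondrial translation and engages the integrated stress response, in which the transcription factors ATF4, ATF5 and CHOP raise genes for amino acid uptake, serine synthesis and the mitochondrial folate cycle. Fgf21 is itself a target of this response and encodes a hormone that acts through FGF receptors together with the co-receptor β-Klotho. The series title asks how far FGF21 shapes the mitochondrial stress response of the heart.

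Before the comparison, the state of the libraries is given, since it touches several results. The 8 libraries held 41088601 to 51820727 counts. Summed levels of 10 ventricular cardiomyocyte markers were 26649 to 30489 CPM in Clpp KO and 27087 to 32230 in double KO, so the defining markers of the labelled tissue were abundant in every library. These marker sums are CPM, the usual depth-normalised read count, by library totals. Levels of single genes and of summed copies are CPM scaled further by TMM, the trimmed mean of M-values, except for Fgf21. The summed 12 atrial markers ran from 374 to 3975 CPM in Clpp KO and from 381 to 1668 in double KO, so libraries held unequal amounts of atrial RNA. Red blood cell markers (8 genes) reached 7430 CPM in double KO replicate 4, against 515 to 1555 in the other 7 libraries. Double KO replicates 3 and 4 lay at one end of the first principal component of the 8 libraries, which carried 40% of the variance. Outside these 8, the wild-type libraries were uneven. Their share of counts in mitochondrial mRNAs was 39.1%, 25.5%, 39.4% and 28.9% in replicates 1 to 4, and replicate 2 had a TMM factor of 1.83. In Fgf21 KO this share ran from 29.2% to 38.8%. The wild-type libraries enter the shared estimate of the spread, the interaction and each comparison with wild type. In bulk tissue, fewer cells of a type and less RNA per cell cannot be told apart.

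Fgf21 (chromosome 7, positions 45613886 to 45615490 of GRCm38, ENSMUSG00000030827) held 21, 6, 28 and 14 counts in the Clpp KO replicates and 0, 0, 0 and 0 in the double KO replicates. Every Clpp KO library lay above every double KO library. The level in Clpp KO was 0.356 ± 0.170 CPM by library totals (SD, n = 4), and against a floor of 3 counts over the double KO group it was at least 22.3-fold higher (two-sided exact permutation p = 0.0286, which is the smallest that 4 against 4 allows). Clpp (chromosome 17, positions 56990305 to 56996188) held 333, 336, 355 and 308 counts in Clpp KO and 272, 267, 289 and 293 in double KO, and was not called on the scaled level (log2 fold change -0.05 ± 0.16 SE, edgeR quasi-likelihood adjusted p = 0.994). Reads were summed over the whole gene, and which exons they came from was not analysed here.

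Few genes were called between double KO and Clpp KO hearts. Of the 15255 genes tested, 9 were called at an adjusted p under 0.05 (0.059%), 6 of them higher in double KO (0.0393%) and 3 lower (0.0197%); the test was edgeR's quasi-likelihood test with Benjamini-Hochberg adjustment over all genes. At an unadjusted p under 0.05 there were 542 genes (3.55%), 306 higher (2.01%) and 236 lower (1.55%). The 2 groups of libraries did not overlap for 882 genes (5.78%), 475 higher (3.11%) and 407 lower (2.67%). The 9 called genes fall into 3 kinds: neighbours of the deleted Fgf21 gene (Kcnj14, Ush1c, Car11), members of pairs of near-identical sequences (mt-Nd3, Gm5522, Ftl1-ps1, Glns-ps1), and Gm14659 and Vmn2r3.

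Because 5 of the 9 called genes belong to pairs of near-identical sequences, counting Kcnj14 with its copy, the sequences that bear on them are given first. They come from the GENCODE M21 transcripts of GRCm38, read from 5′ to 3′, with the bases at which the members of a pair differ in capitals. The first pair is mt-Nd3 and Gm28438, and their first 60 bases are shown because the whole difference between them lies there.
mt-Nd3: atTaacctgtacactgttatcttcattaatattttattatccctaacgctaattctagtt
Gm28438: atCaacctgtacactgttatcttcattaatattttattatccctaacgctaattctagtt
Over the 345 coding bases of mt-Nd3 the pair differs at 1 position, T3C, counted from the first base of mt-Nd3. Of the 31-base words of mt-Nd3, 98.1% occur in Gm28438. For Kcnj14 and the processed pseudogene Gm5522, the stretch with the most differences is shown, bases 61 to 120 of the Kcnj14 coding sequence.
Kcnj14: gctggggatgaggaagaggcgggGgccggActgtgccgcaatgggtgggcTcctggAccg
Gm5522: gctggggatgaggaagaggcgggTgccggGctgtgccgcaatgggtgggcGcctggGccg
These 60 bases hold 4 of the 11 differences over 1242 aligned bases (99.1% identical), namely G84T, A90G, T111G and A117G, counted from the first coding base of Kcnj14. For Ftl1 and Ftl1-ps1 the window holds both of their differences, G468A and G504A, counted from the first coding base of Ftl1.
Ftl1: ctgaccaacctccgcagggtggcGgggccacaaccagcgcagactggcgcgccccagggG
Ftl1-ps1: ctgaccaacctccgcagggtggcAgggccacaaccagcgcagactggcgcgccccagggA
Ftl1 and Ftl1-ps1 are identical at 99.6% of 549 aligned coding bases. Glul and Glns-ps1 are 97.8% identical over 1111 aligned bases, with 24 differences and 2 gaps. A read from a shared stretch can be assigned to either member, so the counts of these genes are uncertain one by one, and the sum of a pair is given beside them. Ftl1-ps1 shares 31-base words with 59 genes, 36% of its words with Gm15590. Of the words of Glns-ps1, 22.4% occur in AC134576.3. For these pairs the sum does not cover reads shared with further genes.

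Of the neighbours of Fgf21 on chromosome 7, 3 rose in double KO. Kcnj14 encodes an inwardly rectifying potassium channel and lies at positions 45816460 to 45824782, with a gap of 201 kb to Fgf21. Its levels were 0.343, 0.306, 0.146 and 0.314 CPM in the Clpp KO replicates and 33.9, 39.7, 21.3 and 32.5 CPM in the double KO replicates. It rose by 6.84 ± 0.46 on the log2 scale (SE, adjusted p = 3.49e-06), and every double KO library lay far above every Clpp KO library. Summed with Gm5522 the change was 6.85 ± 0.46 (adjusted p = 3.27e-06), as large as for Kcnj14 alone. Gm5522 itself (chromosome 1, positions 10805281 to 10806522) held 0 counts in all Clpp KO libraries and 19, 13, 5 and 16 counts in double KO (adjusted p = 0.0142), or 0.725% to 1.56% of the counts of the pair. The Gm5522 call was lost with the replicate block (adjusted p = 0.186), without Clpp KO replicate 1 (0.0513), without double KO replicate 1 (0.0558) or 4 (0.0586), and without double KO replicates 3 and 4 together (0.0771).

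Ush1c encodes harmonin, a scaffold protein of inner ear hair cells and epithelial brush borders, and lies 580 kb from Fgf21 (positions 46195350 to 46238503). Its levels were 2.47, 2.32, 3.04 and 4.24 CPM in Clpp KO and 16.1, 16.5, 15.3 and 15.3 CPM in double KO, a rise of 2.40 ± 0.28 (log2, SE; adjusted p = 0.00137) with no overlap. Car11, a carbonic anhydrase-related protein without the catalytic activity of its family, lies 84.4 kb from Fgf21 (positions 45699843 to 45704682). Its levels were 1.60, 2.14, 1.46 and 1.63 CPM in Clpp KO and 4.19, 3.15, 5.37 and 5.77 CPM in double KO. The Car11 rise of 1.43 ± 0.23 (adjusted p = 0.0260) also came without overlap but was the less stable call: by library size alone it was 1.25 (adjusted p = 0.364), and leaving out any of Clpp KO replicates 1, 3 and 4 or double KO replicates 1, 3 and 4 ended it. So did the replicate block (adjusted p = 0.0932), a fit of the 8 libraries alone (0.0520) and leaving out double KO replicates 3 and 4 together (1.10, adjusted p = 0.909).

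**Figure D1:**
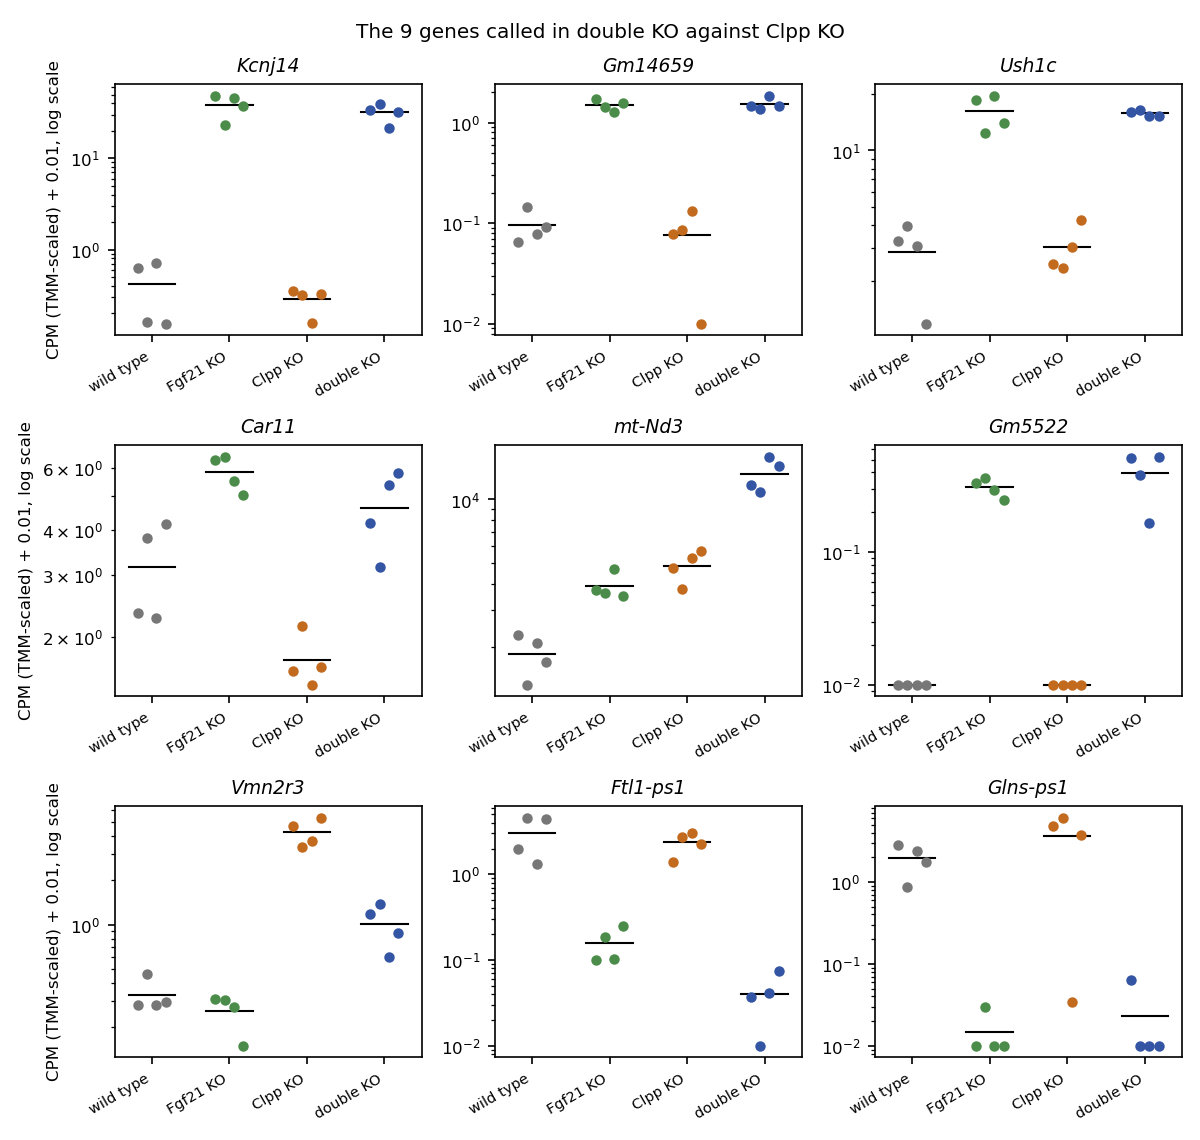
Level of each of the 9 called genes in every library, as TMM-scaled CPM plus 0.01 on a log axis, for wild type, Fgf21 KO, Clpp KO and double KO (points, 4 libraries each; black bars, means). Kcnj14, Gm14659, Ush1c and Gm5522 are high in both groups that lack Fgf21, while Vmn2r3 is highest in Clpp KO and intermediate in double KO; the 0.01 marks libraries with 0 counts.

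Within 1 Mb of Fgf21, 77 genes were tested. The 3 called neighbours make up 3.90% of them, against 0.059% of all genes tested. The groups did not overlap for 17 of the 77 (22.1%, against 5.78%), 9 higher and 8 lower. Bcat2, the mitochondrial branched-chain aminotransferase, lies 24.2 kb from Fgf21 and stood at 65.6, 52.3, 63.5 and 69.3 CPM in Clpp KO against 106, 118, 150 and 131 CPM in double KO. Its difference of 1.01 ± 0.20 (log2, SE) came without overlap and did not pass the test (adjusted p = 0.133). DESeq2 (0.00113) and limma voom (0.000481) called it, as did edgeR in the 8 libraries alone (0.00975) and without the wild-type libraries (0.0322). The lowest neighbour was Izumo1, a sperm protein needed for fusion with the egg, at 0.189 to 0.389 CPM in Clpp KO and 0.0286 to 0.124 in double KO (log2 difference -2.05 ± 0.49, adjusted p = 0.437). Of the 31-base words of Izumo1, 20% occur in Rasip1, so its counts are uncertain. Fam83e (2.28 ± 0.56), the pseudogene model Gm18706 (2.33 ± 0.47), Mamstr (-0.67 ± 0.18), Ccdc114 (-1.04 ± 0.28) and Kcnj11 (-0.70 ± 0.19) also lay without overlap and did not pass the main test. Other fits called some of these neighbours: limma voom called Izumo1 (adjusted p = 0.0299), Fam83e (0.0182), Gm18706 (0.0140) and Kcnj11 (0.000364), and DESeq2 called Gm18706 (0.00135). Kcnj11 was also called by library size alone (0.0109), in the 8 libraries alone (0.00690) and without the wild-type libraries (0.0430).

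The same neighbours could be read in a second pair of groups that shares no library with this one, Fgf21 KO against wild type, where CLPP is present. Kcnj14 was 6.57 ± 0.43 higher there (adjusted p = 2.41e-06) and Ush1c 2.49 ± 0.28 (adjusted p = 0.000688). Bcat2 was called there at 1.34 ± 0.20 (adjusted p = 0.0127), and Car11 was not (0.89 ± 0.22, adjusted p = 0.538). Mamstr was called lower there (-1.27 ± 0.18, adjusted p = 0.00767). All 17 neighbours whose groups did not overlap had the same sign in both comparisons, as did 64 of the 77 neighbours (83.1%) and 65.8% of all genes tested. Across the 77 neighbours the log2 fold changes of the 2 comparisons had a Pearson r of 0.929 and a Spearman rho of 0.720, given as a description, since neighbouring genes are not independent and Kcnj14 alone lies far from the rest.

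**Figure D2:**
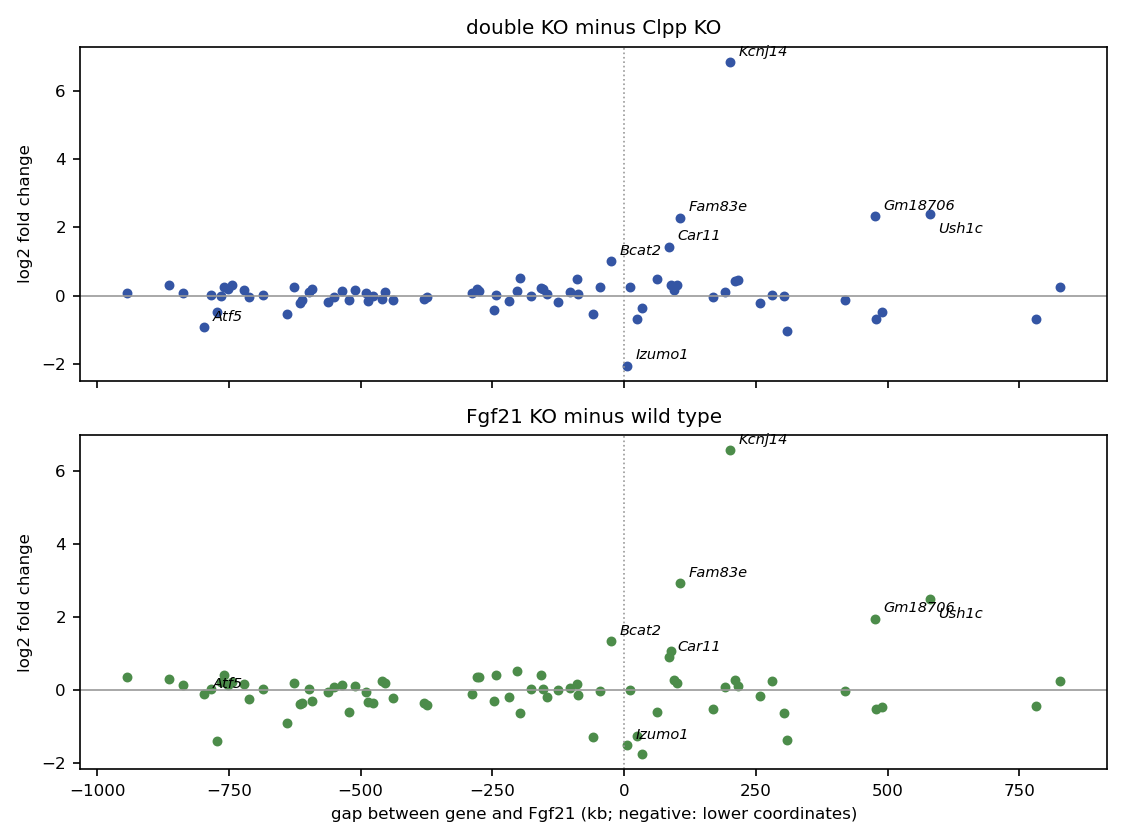
Log2 fold change of the 77 genes tested within 1 Mb of Fgf21 against their gap to Fgf21 in kb, for double KO minus Clpp KO (top) and Fgf21 KO minus wild type (bottom), which share no library. Kcnj14 stands highest in both panels (6.84 and 6.57), and Ush1c, Fam83e and Gm18706 lie above most neighbours in both.

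The only called transcript of the mitochondrial genome was mt-Nd3, a subunit of respiratory complex I, and its counts are given beside those of its copy. In the Clpp KO replicates mt-Nd3 (mitochondrial genome, positions 9459 to 9806) held 208424, 148261, 217000 and 180845 counts, and in double KO 436775, 379068, 511754 and 450498. On the scaled level it rose by 1.44 ± 0.20 (log2, SE; adjusted p = 0.00529) without overlap. Without double KO replicates 3 and 4 the mt-Nd3 difference was 1.21 and was not called (adjusted p = 0.269). Gm28438 (chromosome 1, positions 24612775 to 24613119, an unprocessed pseudogene named here after its values were seen) went the other way, with 141698, 148265, 173159 and 157157 counts in Clpp KO and 554, 564, 203 and 24 in double KO. Its share of the counts of the pair was 40.5% to 50.0% in Clpp KO and 0.00533% to 0.149% in double KO.

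Summed over both members, the mt-Nd3 pair stood at 8918 ± 1400 CPM (SD, n = 4) in the 4 Clpp KO libraries and 13218 ± 2355 CPM in those of double KO, a difference of 0.57 ± 0.21 (log2, SE) that was not called (adjusted p = 0.994). The same division by Fgf21 genotype appeared where CLPP was present, with a Gm28438 share of 29.3% to 37.4% in wild type and 0.00428% to 0.985% in Fgf21 KO. Whether counts moved between the 2 members was not tested. The other 12 mRNAs of the mitochondrial genome were not called, and their log2 differences lay between -0.04 and 0.36. The share of all counts in the 13 mitochondrial mRNAs was 58.0% ± 1.44 (SD, n = 4) in Clpp KO and 58.8% ± 1.99 in double KO, a difference of 0.727 percentage points (exact two-sided permutation test p = 0.543). This share includes mt-Nd3 but not Gm28438, so the uncertain split of the pair enters the difference.

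**Figure D3:**
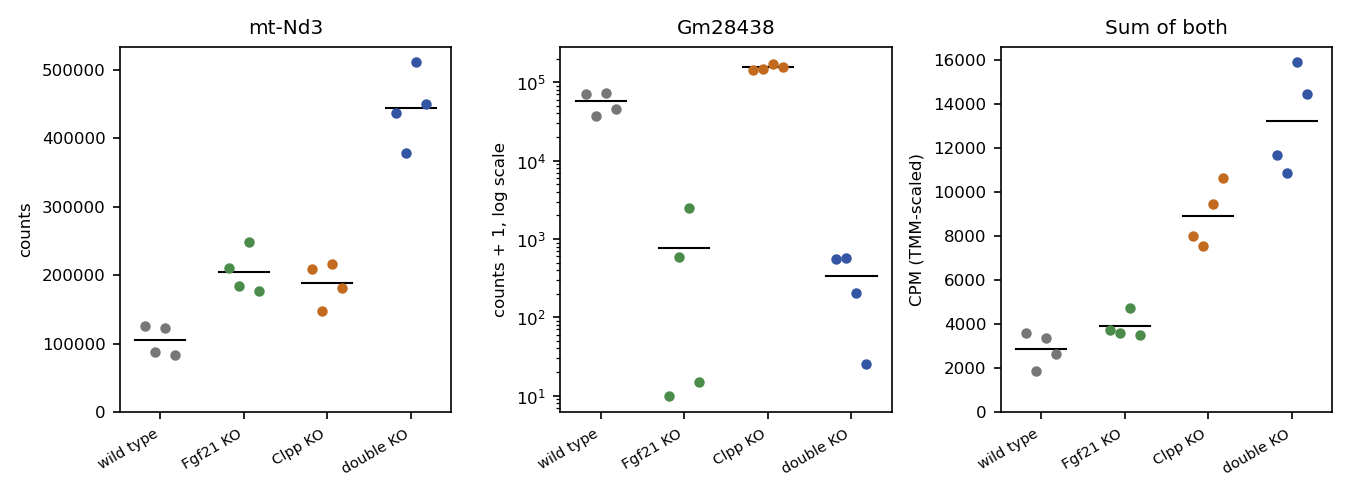
Counts of mt-Nd3 (left), counts of Gm28438 plus 1 on a log axis (middle) and the level of their sum in TMM-scaled CPM (right) in each library of the 4 genotypes, with means as bars. Gm28438 holds 36587 or more counts in each library with Fgf21 and 2475 or fewer in each library without it, while the sum differs less between Clpp KO and double KO (8918 and 13218 CPM).

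Both remaining copies were lower in double KO. Ftl1-ps1 (chromosome 13, positions 74399694 to 74407346), a copy of the ferritin light chain gene, held 60, 106, 126 and 71 counts in Clpp KO and 1, 0, 1 and 2 in double KO, and fell by 6.18 ± 0.63 on the log2 scale (SE, adjusted p = 1.69e-04). Ftl1, which encodes the iron storage subunit itself and lies 154 kb from Fgf21, stood at 264 to 318 CPM in Clpp KO and 278 to 429 in double KO. The sum of Ftl1 and Ftl1-ps1 differed by 0.18 ± 0.20 (adjusted p = 0.994), since the copy made up at most 1.06% of it in Clpp KO. Glns-ps1 (chromosome 11, positions 19720355 to 19721472), a copy of the glutamine synthetase gene Glul, held 211, 236, 1 and 119 counts in Clpp KO and 2, 0, 0 and 0 in double KO. It was called by a small margin (log2 fold change -7.72 ± 1.3, adjusted p = 0.0486), and Clpp KO replicate 3 overlapped with double KO. The Glns-ps1 call was lost with limma voom (adjusted p = 0.577), the replicate block (0.270), the atrial covariate (0.0874) and no low-count filter (0.148). It was also lost without any 1 of Clpp KO replicates 1, 2 and 4 or of the 4 double KO replicates (0.104 to 0.312), and without double KO replicates 3 and 4 together. Its sum with Glul differed by 0.05 ± 0.22 (adjusted p = 0.995). With each of the 4 pairs summed, 5 genes were called in place of 9.

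Gm14659, a processed pseudogene on chromosome X (positions 63184686 to 63186526), held 3, 3, 5 and 0 counts in Clpp KO and 55, 47, 59 and 45 in double KO. It rose by 4.40 ± 0.43 (log2, SE; adjusted p = 1.35e-04), and it was 4.05 ± 0.40 higher in Fgf21 KO than in wild type (adjusted p = 1.53e-04). Of its 31-base words, 9.55% occur in other genes, 4.09% in Gm15824, the one sharing most. Gpr149, an orphan receptor with a log2 difference of 3.09 ± 0.57, missed the threshold (adjusted p = 0.0786; DESeq2 0.0208, limma voom 0.00744) at 0 to 0.0972 CPM in Clpp KO and 0.186 to 0.481 in double KO.

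Vmn2r3 fell in double KO but stayed above the level seen with CLPP present. It belongs to the vomeronasal type 2 receptor family, pheromone receptors of the vomeronasal organ, and lies on chromosome 3 (positions 64257215 to 64289709). Its levels were 4.64, 3.34, 3.69 and 5.31 CPM in Clpp KO and 1.17, 1.37, 0.590 and 0.866 CPM in double KO, a fall of 2.08 ± 0.28 on the log2 scale (SE, adjusted p = 0.00493) without overlap. Wild-type libraries stood at 0.272 to 0.453 CPM and Fgf21 KO libraries at 0.139 to 0.302. Vmn2r3 was therefore 3.70 ± 0.30 higher in Clpp KO than in wild type (adjusted p = 5.82e-06) and 1.99 ± 0.31 higher in double KO than in Fgf21 KO (adjusted p = 0.00217); the first of these shares the Clpp KO libraries with the main comparison and the second the double KO libraries. Among the 9 called genes, mt-Nd3 also passed both of these tests (1.39 ± 0.20 with adjusted p = 0.00128, and 1.77 ± 0.20 with adjusted p = 0.000156). For Vmn2r3 the interaction, which sets the Fgf21 effect seen in the absence of CLPP against that seen in its presence, was -1.71 ± 0.42 and was not called after adjustment over all genes. Without double KO replicates 3 and 4 the difference was -1.73 ± 0.32 and no longer passed (adjusted p = 0.207).

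Whether Fgf21 loss acted differently with and without CLPP was tested for every gene by this interaction term. It called 0 of 15255 genes (0%) in edgeR, with 299 (1.96%) at an unadjusted p under 0.05, while DESeq2 called 3 and limma voom 1. Fgf21 KO against wild type called 7 genes (0.0459%), of which 5 were also called in double KO against Clpp KO (71.4% of the 7 and 55.6% of the 9): Kcnj14, Gm14659, Ftl1-ps1, Ush1c and Gm5522. All 9 genes called in double KO against Clpp KO had the same sign in Fgf21 KO against wild type. For comparison, loss of CLPP with Fgf21 present called 249 genes (1.63%; higher in Clpp KO, 1.08%) and loss of CLPP without Fgf21 136 genes (0.892%; higher in double KO, 0.826%).

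None of the genes of the mitochondrial stress response was called, although several lay apart. In the list for serine, one-carbon and proline synthesis, 0 of 22 members were called; 7 were lower at an unadjusted p under 0.05 against 1.55% of all genes, and the same number lay without overlap below Clpp KO against 2.67%. No member was higher by either count. The median log2 difference of the list was -0.15, with 0.01 over all genes. Asns, asparagine synthetase, stood at 19.0, 23.6, 19.0 and 19.2 CPM in Clpp KO and 8.56, 10.8, 4.47 and 6.29 in double KO (-1.42 ± 0.30, SE; adjusted p = 0.234). Phgdh, the first enzyme of serine synthesis, stood at 14.9, 15.8, 14.9 and 16.3 CPM in Clpp KO and 5.57, 7.24, 2.08 and 3.75 in double KO (-1.73 ± 0.43, adjusted p = 0.579). Of the 31-base words of Phgdh, 56.3% occur in other genes. In both genes all double KO libraries were below all Clpp KO libraries, with double KO replicates 3 and 4 lowest.

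Mthfd2, of the mitochondrial folate cycle, stood at 45.2, 47.8, 39.7 and 37.0 CPM in Clpp KO and 18.5, 23.4, 6.64 and 13.6 in double KO (-1.45 ± 0.38, adjusted p = 0.698). Pycr1, which makes proline, was at 3.84 to 5.51 CPM in Clpp KO and 1.37 to 2.89 in double KO (-1.18 ± 0.28, adjusted p = 0.437). Aldh1l2, the mitochondrial formyltetrahydrofolate dehydrogenase, was at 13.5 to 28.4 CPM in Clpp KO and 4.78 to 12.8 in double KO (-1.24 ± 0.35, adjusted p = 0.785). The spread within the double KO group was wide in all of these, and replicate 3 was the lowest library each time. Without double KO replicates 3 and 4 the differences were -1.06 for Asns, -1.27 for Phgdh, -1.02 for Mthfd2, -0.94 for Pycr1 and -0.78 for Aldh1l2, none of them called.

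Asns, Mthfd2 and Phgdh remained higher in double KO than in Fgf21 KO. Asns was at 1.45 to 3.93 CPM in wild type and 1.00 to 1.67 in Fgf21 KO, and in double KO it was 2.34 ± 0.32 higher than in Fgf21 KO (log2, SE; adjusted p = 0.000846). Mthfd2 was 3.31 ± 0.42 higher (adjusted p = 0.000613) and Phgdh 2.48 ± 0.47 higher (adjusted p = 0.0151) in the same comparison. Pycr1 (1.16 ± 0.29, adjusted p = 0.0970) and Aldh1l2 (1.21 ± 0.36, adjusted p = 0.263) were not called there. Of the 22 list members, 7 were called higher in Clpp KO against wild type, beside 1.08% of all genes, and 4 in double KO against Fgf21 KO, beside 0.826%. The interaction estimates were -0.76 ± 0.44 for Asns, -0.81 ± 0.63 for Phgdh and -0.53 ± 0.56 for Mthfd2, none of them called. The choice of test and of libraries matters here. Asns, Phgdh, Mthfd2 and Pycr1 were called by both DESeq2 (adjusted p = 0.00259, 0.0198, 0.0372 and 0.0238) and limma voom (0.000364, 0.000364, 0.00391 and 0.0311). The edgeR fit without the wild-type libraries also called Asns (-1.43, adjusted p = 0.0373).

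**Figure D4:**
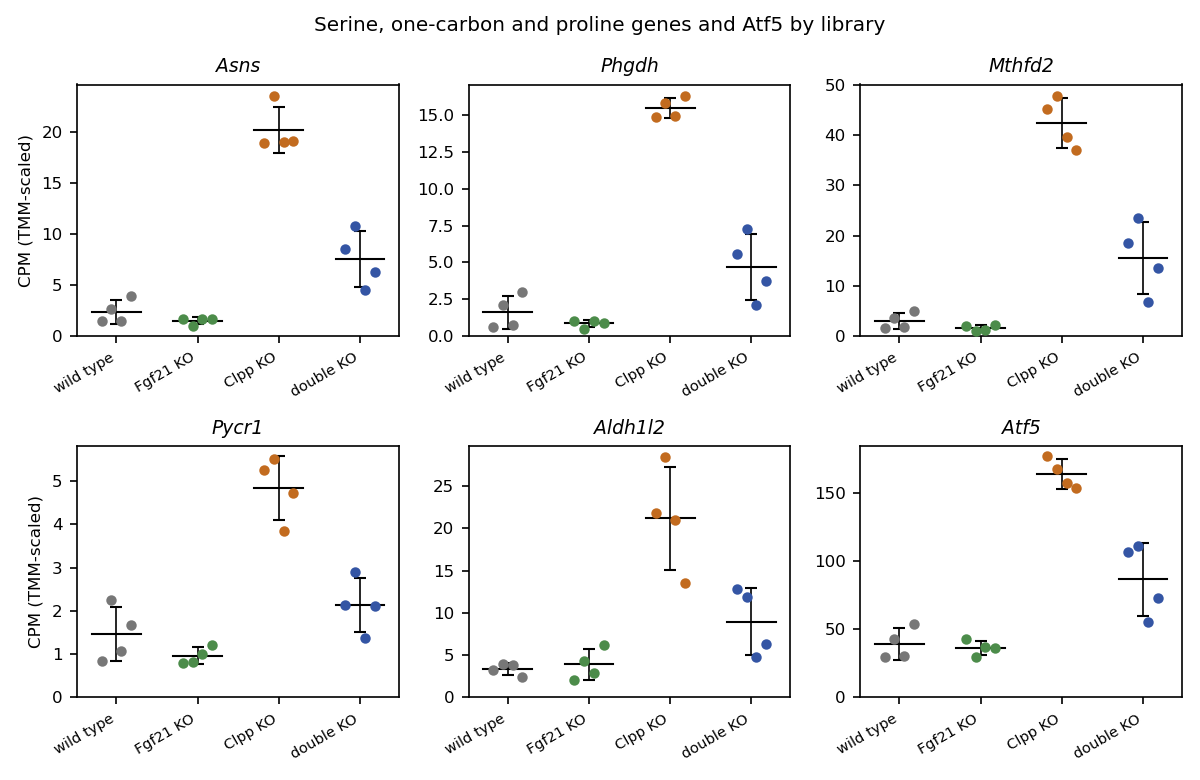
Level in TMM-scaled CPM of 5 serine, one-carbon and proline genes and of Atf5 in each library of the 4 genotypes (points; bars and whiskers, mean and SD, n = 4). Double KO libraries lie below Clpp KO libraries in every panel, as for Asns at 4.47 to 10.8 against 19.0 to 23.6 CPM, and mostly above the libraries with CLPP.

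Among 22 integrated stress response factors none was called, 4 were lower and 0 higher at an unadjusted p under 0.05 (1.55% and 2.01% of all genes), and the list median was -0.06. Without overlap, 2 lay below Clpp KO and 1 above (2.67% and 3.11% of all genes). The highest member was Atf3, a stress-induced transcription factor, at a mean of 8.88 CPM in Clpp KO and 34.9 in double KO (1.98 ± 1.17, adjusted p = 0.994), with overlap. Atf5, a transcription factor of the mitochondrial stress response, was at 177, 168, 157 and 154 CPM in Clpp KO and 106, 111, 55.3 and 72.8 in double KO (-0.92 ± 0.22, SE; adjusted p = 0.437), without overlap. Atf5 lies 797 kb from Fgf21 on chromosome 7, and in Fgf21 KO against wild type it differed by -0.11 ± 0.22. Its interaction estimate was -0.81 ± 0.31 (edgeR quasi-likelihood, unadjusted p = 0.0184) and was not called. DESeq2 (adjusted p = 0.0198) and limma voom (0.0182) called Atf5 lower in double KO. Sesn2, an ATF4 target that restrains mTORC1, was at 4.34 to 6.20 CPM and 2.36 to 4.41 CPM (-0.50 ± 0.17, adjusted p = 0.994). The interaction estimate for Sesn2 was -0.65 ± 0.24 (edgeR quasi-likelihood, unadjusted p = 0.0136), also not called. Of all genes, 1.96% had an unadjusted interaction p under 0.05.

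Downstream groups of the same response held no called member either. Of 20 cytosolic aminoacyl-tRNA synthetases, which load amino acids onto tRNAs, 0 were called, 3 were lower at an unadjusted p under 0.05 and 6 lay without overlap below Clpp KO, beside 1.55% and 2.67% of all genes. The glycyl enzyme Gars was at 65.8 to 71.2 CPM in Clpp KO and 52.7 to 57.9 in double KO (-0.32 ± 0.11), and the seryl enzyme Sars at 65.0 to 73.2 and 52.2 to 61.5 (-0.32 ± 0.12). Their interaction estimates were -0.40 ± 0.16 for Gars and -0.40 ± 0.17 for Sars. In edgeR's quasi-likelihood test the unadjusted p was 0.0198 and 0.0339, beside 1.96% of all genes under 0.05. Of these 20 genes, 10 were called higher in Clpp KO against wild type (1.08% of all genes) and 0 in double KO against Fgf21 KO (0.826%); the difference between these counts was not tested beyond the interaction, which called none. Of 16 amino acid transporters, 0 were called and 3 were lower at an unadjusted p under 0.05 (1.55% of all genes), among them the cystine transporter Slc7a11 (-0.78 ± 0.33) and the cationic transporter Slc7a3 (-1.31 ± 0.50).

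Secreted stress signals and the signalling chain of FGF21 itself gave no call. Gdf15, a stress hormone released with mitochondrial dysfunction, was at 7.48, 7.25, 7.46 and 7.79 CPM in Clpp KO and 2.99, 7.61, 0.435 and 0.930 CPM in double KO (-1.32 ± 0.59, SE; adjusted p = 0.994). Its 4 Clpp KO libraries were close together, while double KO replicate 2 reached their level and replicates 3 and 4 lay far below. Of 19 tested genes for FGF receptors, adaptors and ERK pathway targets, 0 were called, 2 were lower at an unadjusted p under 0.05 (1.55% of all genes) and the median was -0.13. Dusp4, an ERK phosphatase, was at 3.55 to 6.89 CPM in Clpp KO and 0.673 to 4.28 in double KO (-0.94 ± 0.42), and Spred1, an inhibitor of the pathway, at 13.8 to 17.1 and 10.3 to 14.9 (-0.32 ± 0.13); both overlapped.

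Interferon-stimulated genes, which are induced when nucleic acids are sensed, gave no call between the 2 groups. Of 36 effectors, 0 were called, 0 reached an unadjusted p under 0.05 and 0 lay without overlap (3.55% and 5.78% of all genes), with a median of -0.03 that was 0.18 without double KO replicates 3 and 4 and 0.07 with the atrial covariate. Ifi44, with the smallest p of the list, was at 4.41 to 7.18 CPM in Clpp KO and 6.32 to 9.76 in double KO (0.42 ± 0.20, SE; adjusted p = 0.994). The list was high in both groups: 19 of the 36 were called higher in Clpp KO against wild type (1.08% of all genes) and 30 in double KO against Fgf21 KO (0.826%), comparisons that use different libraries. Of 28 genes of interferon signalling, 20 of the GBP and IRG families and 19 of MHC class I, 0 were called.

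Genes of mitochondrial energy metabolism lay slightly above 0 as groups, and no nuclear gene among them was called. The median log2 difference was 0.25 for 36 nuclear genes of complex I, 0.23 for 42 of complexes II to V, 0.18 for 79 of the mitochondrial ribosome and 0.16 for 24 of the citric acid cycle. The log2 difference was above 0 for 36 of 36, 42 of 42 and 76 of 79 members of the first 3 lists, beside 51.8% of all genes. Without overlap above Clpp KO were 2 of 36, 6 of 42, 11 of 79 and 6 of 24, beside 3.11% of all genes. By library size alone these medians were 0.10, 0.08, 0.03 and 0.01, while the median of all genes moved from 0.01 to -0.14. With the atrial marker level as a covariate they were 0.16, 0.15, 0.10 and -0.04, so the citric acid cycle median turned. Cox7a1, the heart and muscle form of a cytochrome oxidase subunit, was at 181 to 268 CPM in Clpp KO and 272 to 326 in double KO (0.39 ± 0.16, SE; adjusted p = 0.994).

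Among 17 mitochondrial tRNA synthetases, the leucyl enzyme Lars2 had the smallest p, with 159, 182, 312 and 210 CPM in Clpp KO and 366, 2845, 3143 and 413 CPM in double KO (2.97 ± 0.70, adjusted p = 0.457). The groups did not overlap, yet double KO replicates 2 and 3 stood far above replicates 1 and 4, and Fgf21 KO replicate 1 reached 911 CPM. DESeq2 called Lars2 (adjusted p = 0.00447), and limma voom did not. Of 41 genes of fatty acid oxidation and PPAR targets, 0 were called. The log2 difference was above 0 for 33 of them, beside 51.8% of all genes, and the list median was 0.17. That median was 0.02 by library size alone and -0.003 with the atrial covariate. The mitochondrial carrier Ucp3 had the smallest p and went against most of the list. It was at 51.5 to 79.9 CPM in Clpp KO and 22.6 to 45.1 in double KO (-0.95 ± 0.36, adjusted p = 0.994).

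**Figure D5:**
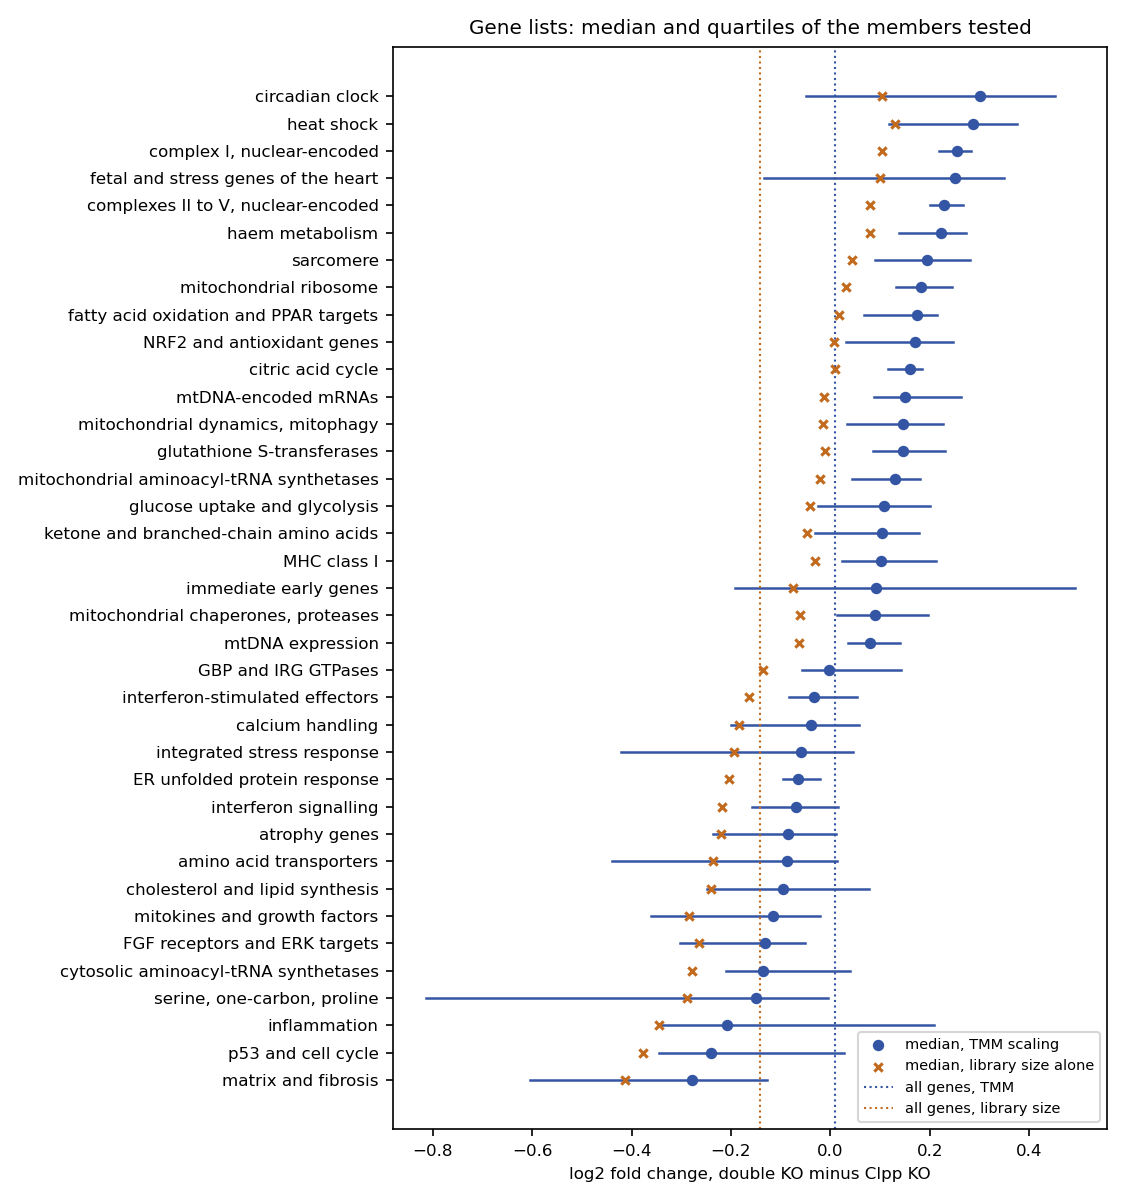
Median (blue point) and quartiles (blue line) of the log2 fold change, double KO minus Clpp KO, for the tested members of each gene list, with the median under scaling by library size alone as an orange cross and the medians of all genes as dotted lines. The respiratory complexes lie close together at 0.23 to 0.25, and the serine, one-carbon and proline list lies at -0.15.

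Protein folding genes of the heat shock response had a median of 0.29 over 17 members, which was 0.07 without double KO replicates 3 and 4. Of these 0 were called, 3 were higher at an unadjusted p under 0.05 and 5 lay without overlap above Clpp KO, beside 2.01% and 3.11% of all genes. Bag3, a co-chaperone of muscle, was at 160 to 179 CPM in Clpp KO and 186 to 277 in double KO (0.40 ± 0.18, SE). Hsf1, the transcription factor of the response, differed by 0.21 ± 0.09 without overlap and was not called. In the list of fetal and stress genes of the heart, Hspb7, a small heat shock protein of heart muscle, was at 660, 921, 780 and 864 CPM in Clpp KO and 1555, 1023, 1903 and 1947 in double KO (1.00 ± 0.32, adjusted p = 0.994). Its groups did not overlap, and limma voom called it (adjusted p = 0.0387).

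Matrix and fibrosis genes had the lowest median of the pathway lists, -0.28 over 35 members. Of these 31 lay below 0, beside 48.2% of all genes, with 0 called and 0 without overlap. Tnc, tenascin C, was at 1.10, 4.13, 0.899 and 0.534 CPM in Clpp KO and 0.341 to 0.747 in double KO (-1.63 ± 0.61, SE; adjusted p = 0.994), and Clpp KO replicate 2 stood above all other libraries of both groups. The list median was 0.02 without double KO replicates 3 and 4 and 0.01 with the atrial marker level as a covariate. Summed fibroblast markers (12 genes) were 1020 to 1814 CPM in Clpp KO and 749 to 1248 in double KO, by library totals, with replicates 3 and 4 lowest; their part in the result was not tested. Cry1 (0.85 ± 0.27) and Nfil3 (0.87 ± 0.32), of the circadian clock, were not called, and the clock list had a median of 0.30 that was -0.17 without double KO replicates 3 and 4.

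Across all 37 pathway lists other than the Fgf21 neighbours, mt-Nd3 was thus the one called member, and the cell type lists held none. The atrial list had all 12 tested members lower in double KO, with a median of -1.47, and 0 called, 0 at an unadjusted p under 0.05 and 0 without overlap. Bmp10, an atrial growth factor, was at 9.31, 142, 125 and 0.597 CPM in Clpp KO and 8.54, 0.0858, 0.0310 and 0.0321 CPM in double KO (-4.96 ± 2.54, SE; adjusted p = 0.994), which separates libraries within each group more than the groups. The red blood cell list had a median of 1.37 over 8 members, also with 0 called. Its summed markers were 515, 611, 1294 and 7430 CPM in double KO replicates 1 to 4, by library totals. In Clpp KO they were 804 to 1555 CPM, so double KO replicates 1 and 2 lay below every Clpp KO library.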

How the data were processed

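RNA of cardiac tissue was sequenced from stranded mRNA libraries, per the labels' protocols. Per the submitters' processing notes, the tools were fastp 0.21.0, kallisto 0.46.1, DESeq2 1.30.1 and edgeR 3.32.1 under R 4.0.3, with GRCm38.p6. The authors deposited whole-number counts per gene; the sources used here give neither how kallisto's estimates became whole nor whether strand was used, and reads of overlapping or antisense genes may therefore be mixed. kallisto divides reads that match several transcripts, which can move counts between near-identical genes.

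The counts were analysed as deposited. Genes were kept by filterByExpr (count minimum 10, total minimum 15) in edgeR 4.0.16 under R 4.3.3. One robust quasi-likelihood model with TMM scaling was fitted to all 16 libraries, so the 4 genotypes share 1 estimate of the spread (12 residual degrees of freedom). Genes are called at a Benjamini-Hochberg adjusted p under 0.05 over all genes tested. Errors of log2 fold changes are standard errors, and errors of levels are SD. Tests are two-sided. Single values were compared by exact permutation tests. The fit was tested on simulated counts. Alternatives used DESeq2 1.42.0, limma 3.58.1 (voom), other scalings, filters and samples. Coordinates come from GENCODE M21, which lacks 550 of the identifiers, and shared 31-base words were counted over its transcripts. Floors and counts cover counting error only, since reads carry no molecular identifiers.

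Genes named are Fgf21 and Clpp, called genes with a symbol of their own and a mean of at least 1 CPM (up to 12 in each direction), the 5 genes with the smallest p, called neighbours of Fgf21, and from each list up to 4 called members or the 2 with the smallest p; not every gene the rule gives is printed. Gm5522, Glns-ps1, Gm28438, Atf3, Gpr149, Ftl1, Glul, Phgdh, Mthfd2, Aldh1l2 and the neighbours Izumo1, Fam83e, Gm18706, Mamstr and Ccdc114 were named after their values were seen, as were the sums of copies and the fit without double KO replicates 3 and 4. The members and the gene lists were chosen with earlier results of these data known.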

Additional observations from a re-analysis of the deposited data

Results flagged for a closer look

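Values of a named gene, or of the mitochondrial mRNA share, in a group of 4 libraries made 113 sets. In 6 of them, 1 library's gap to the nearest other, as a share of the group's range, passed Dixon's 95% critical value. Chance alone gives about 1 in 20. In Clpp KO, replicate 2 stood above the other 3 libraries in Asns (23.6 CPM against 19.0 to 19.2), in the chemokine Ccl8 (2.86 against 0.408 to 0.437) and in Tnc (4.13 against 0.534 to 1.10). In double KO, replicate 1 stood above the others in Bmp10 (8.54 CPM against 0.0310 to 0.0858) and in Glns-ps1 (0.0533 CPM against 0). It stood below them in Irf1, an interferon regulatory factor (14.8 against 18.9 to 19.6). For Glns-ps1 the flag rests on 2 counts, and any count beside 3 libraries at 0 would pass. Clpp KO replicate 2 also held the highest sum of atrial markers, 3975 CPM, and of fibroblast markers, 1814 CPM, both by library totals and not scaled by TMM like the gene levels above, and the part of these in the values above was not tested.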

How the results depend on the processing

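The count of 9 called genes became 35 with DESeq2 (18 higher, 17 lower) and 41 with limma voom (19 and 22), which held 9 and 8 of the 9. It was 5 with copies summed and 4 without double KO replicates 3 and 4, both chosen after seeing the data, and 6 to 10 with each library of the 2 groups left out in turn. By library size alone it was again 9 (5 higher, 4 lower). It was 11 in the 8 libraries alone and 13 without the wild-type libraries. The interaction called 3 genes with DESeq2, 1 with limma voom and 1 with the atrial covariate, and 0 in edgeR under each other setting run, left-out libraries included. Replicate numbers did not pair the samples (correlation of same-numbered deviations -0.117, 0.0305, -0.0462 and 0.288); a fit with the replicate block called 6 genes, and the exact paired test of the mitochondrial mRNA share stayed on the same side of the threshold. That share's difference was 0.064 to 1.62 percentage points with a library left out. For Fgf21 the difference was -0.430 to -0.294 CPM; without 1 double KO library it was -0.356 with p = 0.0571, the exact permutation test's value when 3 libraries meet 4 and do not overlap. A floor of 3 counts per library makes its bound 5.58-fold. Signs turned in 6 genes, none of them called in the turned fit: Ftl1-ps1 (0.18), Glns-ps1 (0.047) and Gm28438 (0.57) with copies summed, since the sum replaces the copy; Clpp without Clpp KO replicate 4 (0.0080) or double KO replicate 1 (0.0088), within -0.115 to 0.0088 over all left-out libraries; Ftl1 without double KO replicates 3 and 4 (-0.046); and Glul with limma voom (-0.038), library size alone (-0.077), the atrial covariate (-0.026) or without Clpp KO replicate 2 (-0.071), within -0.071 to 0.198 over all left-out libraries. Of 1216 values of named genes under an alternative, 1144 kept direction and side, 30 lost a call, 32 gained one and 10 turned. The share of all genes of the mitochondrial chromosome could not be tried apart, as the table holds its 13 mRNAs only.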
